A study of Durio zibethinus with 9 samples.

Results

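Of 39453 durian genes with a value in fruit pulp, 100 were both abundant and steady over the whole sampling period. A gene was taken as a member of this group where it was listed in all 9 libraries, where its lowest FPKM was at least 50 and where its highest FPKM was at most 2 times the lowest. FPKM, fragments per kilobase of gene relative to the library's mapped fragments, puts genes of unequal length on the same scale. The 9 FPKM values of a gene therefore chose the members, and every level, ratio and stage difference of a member given here is a description of what was chosen, with no test. Genes listed in all 9 libraries numbered 23940, and 600 of these had a lowest FPKM of 50 or more. The 100 steady genes are set here against the other 500, which passed the same lower limit and varied by more than 2-fold.

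The pulp came from Durio zibethinus var. D24, a cultivated clone, with no treatment and no genetic change. The stages were young pulp at 90 days after anthesis (YS), mature pulp at 120 days (MS) and ripening pulp at 127 days (RS), each with 3 libraries, which the study calls a biological triplicate. The methods state that RS pulp was taken from mature fruits left to ripen at room temperature, so that age and time off the tree cannot be told apart between MS and RS. All fruits came from a single park and a single clone, and the labels do not say how many fruits or trees a library stands for.

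Genes that keep a level RNA amount while a tissue matures are used as the yardstick for other genes, because a relative measure such as quantitative PCR needs a gene that does not move. Many such reference genes belong to the machinery that every living cell runs, such as protein synthesis, the cytoskeleton and the ubiquitin system. In the ubiquitin system an activating enzyme (E1) charges a conjugating enzyme (E2) with ubiquitin, and a ligase (E3) passes it to the protein that is to be degraded or regulated. Durian is a climacteric fruit, whose pulp softens and gains its aroma under ethylene in the last days.

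The libraries held between 2350.2 and 3553 Mb of mapped bases, as the ratio of the coverage and FPKM columns gives them, with no read counts. In RS_03, an RS library, the 10 most abundant genes held 26.3% of all reference FPKM, against 8.34% to 12.4% in the 8 other libraries, and its size factor over all genes was 0.479, against 1.03 to 1.21. The MS libraries lay far closer together than those of the other stages, with a median ratio of highest to lowest of 1.05 in the steady genes. The files hold no counts to tell whether this is less than sampling noise allows. The tissue label was not checked against pulp markers, since no marker list was set. In bulk pulp, fewer cells of a type and less RNA per cell cannot be told apart.

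The steady genes covered a wide range of levels. Their mean FPKM over the 9 libraries ran between 65.9 and 1318, with a median of 112, against a median of 201 in the 500 varying genes. Only 3 reached a mean of 500, 17 a mean of 200 and 58 a mean of 100. Together the 100 genes made up 2.55% to 2.98% of the reference FPKM of a library. The rule limits how far each gene varies, so nothing is read from how similar these shares are. The ratio of highest to lowest library had a median of 1.79 in the steady genes, against 3.59 in the varying abundant genes and 5.93 in all genes listed 9 times. The ratio of 2 was a cut through a continuous range, as the plot of mean against ratio shows: 1 gene stayed within 1.25-fold, 14 within 1.5-fold and 42 within 1.75-fold, so that most members lay in the upper part of the permitted range.

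**Figure D1:**
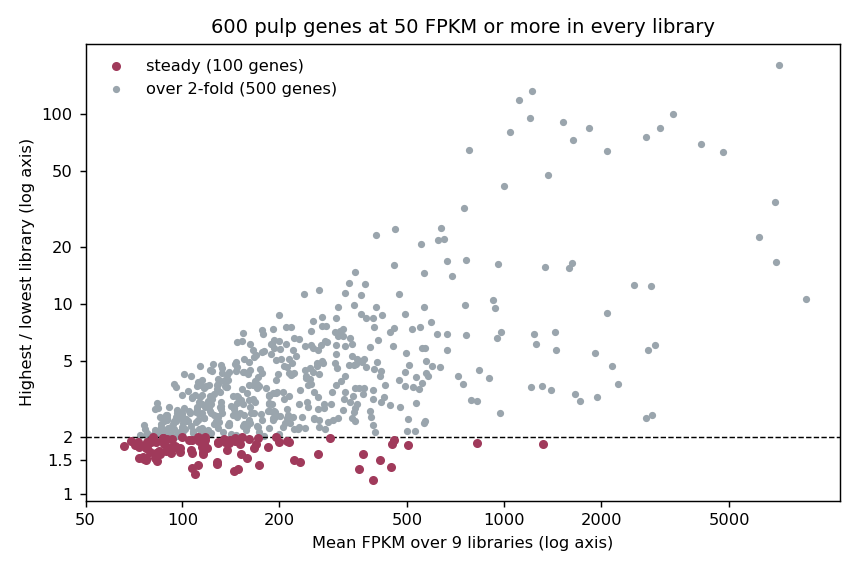
Mean FPKM over 9 libraries (horizontal, log axis) against the ratio of the highest to the lowest library (vertical, log axis) for the 600 genes at 50 FPKM or more in every library. The 100 steady genes lie under the dashed line at 2 and between 65.9 and 1318 FPKM, while the 500 varying genes lie above it and reach a mean of 8687 FPKM.

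At the limits, neighbours inside and outside differed little. LOC111295647, with a lowest library of 50.3 FPKM, and LOC111285709, with 50.5 FPKM, were the last to pass the lower limit. LOC111294194, at 49.98 FPKM, and LOC111313716, at 49.4 FPKM, missed it while their ratios of 1.67 and 1.99 would have passed. LOC111301283 ran between 72.3 and 144.5 FPKM, a ratio of 1.999, and LOC111314083 between 138 and 275 FPKM, a ratio of 1.99. LOC111295552 (58.8 to 118 FPKM, ratio 2.01) and LOC111275564 (56.1 to 113 FPKM, ratio 2.02) stood just outside. Membership at these edges rests on differences of a few percent, which is less than most members varied between the libraries of YS or of RS.

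The most abundant member was LOC111318572, a gene of 1147 bp on the plus strand of scaffold NW_019167982.1 (bases 3494064 to 3495210). It had 995, 1001 and 951 FPKM at YS, 1570.4, 1611 and 1546 at MS and 1446, 1745 and 994 at RS. All 3 MS libraries lay above all 3 YS libraries, while RS spread over the whole range and RS_03 matched the YS level. LOC111279929, a gene of 10206 bp on the minus strand of NW_019168026.1 (14284506 to 14294711), had 1045, 659 and 573 FPKM at YS, 1048, 1056 and 1055 at MS and 685, 689.9 and 596 at RS. Here YS_01 sat at the MS level and the other YS libraries near the RS level, so that MS lay above YS by a very small margin, and RS lay below MS throughout. LOC111293998, on the plus strand of NW_019167826.1, had 467, 706 and 472 FPKM at YS, 544, 516 and 556 at MS and 393, 429.5 and 448 at RS. All RS libraries lay below all libraries of the other stages, and YS_02 alone stood well above the rest.

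Further down, LOC111318003 had 512, 435 and 346 FPKM at YS, 468, 455 and 483 at MS and 506, 586 and 306 at RS. It overlapped in every pair of stages, and its highest and lowest values both came from RS. LOC111297214 had 635, 349 and 401 FPKM at YS, 396, 388 and 399 at MS and 555, 542 and 374 at RS, again with overlap between all stages and its highest value in YS_01. LOC111312918, on the minus strand of NW_019167937.1 (35526689 to 35528336), had 431, 522 and 378 FPKM at YS, 426, 402 and 418 at MS and 479, 479 and 465 at RS. Its 3 RS libraries agreed within 3% and lay above MS, while YS spanned both.

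Among the next genes by level, the MS libraries often stood apart from the rest. LOC111311920 (NW_019167937.1, plus strand) had 336, 375 and 371 FPKM at YS, 505, 488 and 493 at MS and 357, 404 and 379 at RS, so that MS lay above both other stages, which overlapped. LOC111311670 (NW_019167937.1, minus strand) had 303, 285 and 326 FPKM at YS, 451, 437 and 459 at MS and 345, 352 and 329 at RS. Its stages did not overlap at all, in the order YS, RS, MS, and the stage means were 1.47 times as high in MS as in YS and 0.763 times as high in RS as in MS.

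LOC111304569 went the other way. This gene of 3027 bp on the plus strand of NW_019167893.1 (1026810 to 1029836) had 366, 348 and 364 FPKM at YS, 189.9, 190.3 and 187 at MS and 356, 349.9 and 239 at RS. The MS libraries, which agreed within 2%, lay below every library of the other stages, and the mean was 0.526 times as high in MS as in YS, the lowest such value among the 100 genes. The gene had the largest spread between stage means as well, with an SD of 0.48 on the log2 scale, against 0.19 within stages. LOC111305828, the shortest member with 765 bp, had 319, 282 and 276 FPKM at YS, 249, 215 and 223 at MS and 315, 307 and 196 at RS. MS lay below YS, and RS spread from the highest to the lowest part of the range, with RS_03 the lowest of the 9 libraries.

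**Figure D2:**
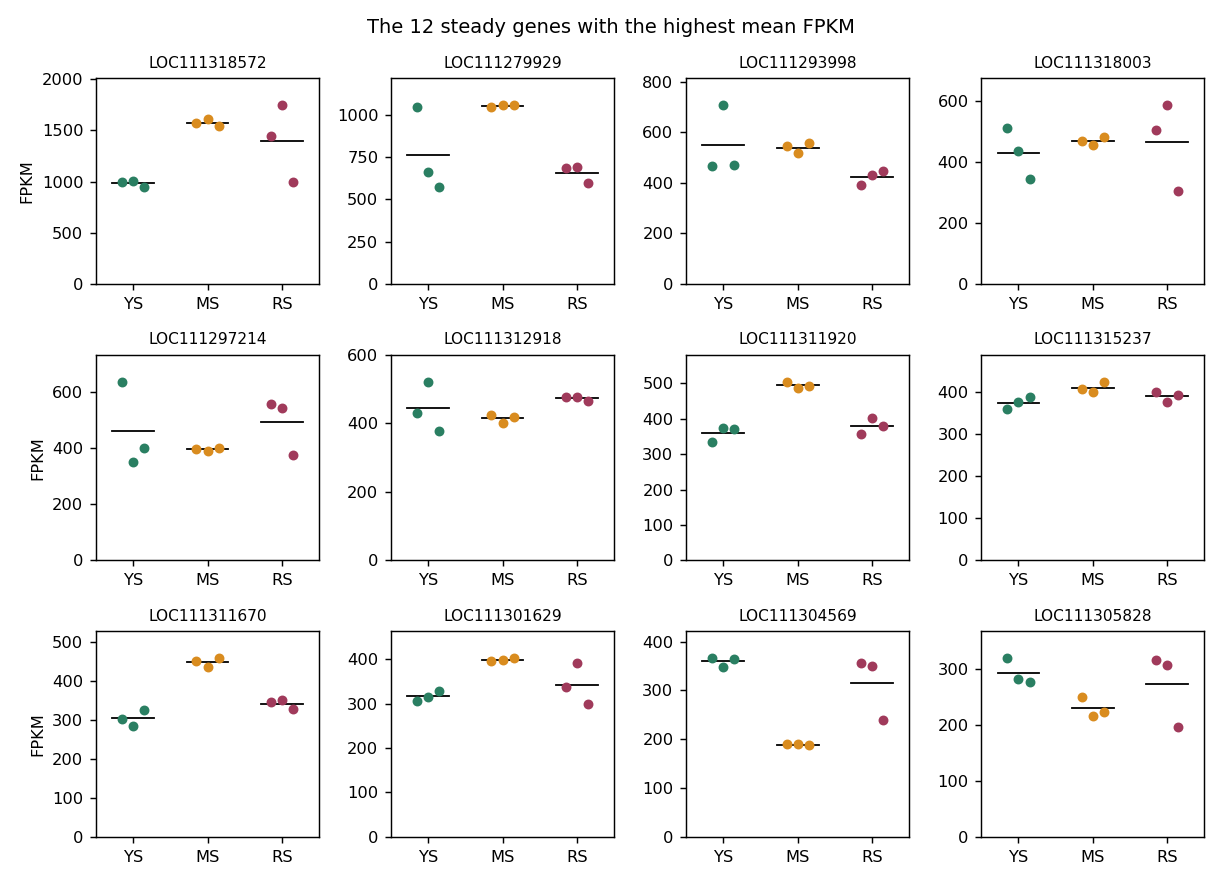
FPKM (vertical, from 0, with a scale of its own in each panel) at YS, MS and RS for the 12 steady genes with the highest mean. Each point is a library, in the order of its replicate number, and each line is the mean of 3. The MS points lie close together in most panels, whereas RS_03 lies under both other RS points in 9 of the 12.

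The smallest spread of all belonged to LOC111315237, a gene of 1680 bp on the plus strand of NW_019167949.1 (421051 to 422730). It had 360.2, 377 and 388 FPKM at YS, 408, 401 and 425 at MS and 401, 377 and 394 at RS, a ratio of 1.18. No library stood out, although MS lay above YS without overlap. It was the only member within 1.25-fold, and its mean of 392 FPKM made it the eighth most abundant member too. LOC111301629 combined a high level with a low spread in the same way. This gene (NW_019167871.1, minus strand, 8041028 to 8042944) had 306, 315 and 329 FPKM at YS, 396, 398 and 402 at MS and 338, 392 and 298 at RS, a ratio of 1.35, and its MS libraries lay above the others.

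LOC111276797 and LOC111276795 were second and sixth by their ratios, 1.27 and 1.37. LOC111276797 (NW_019168004.1, 2987200 to 2999778) had 109, 113 and 122 FPKM at YS, 102, 110.5 and 95.9 at MS and 116, 117 and 98.8 at RS. LOC111276795 (same scaffold and strand, 2934825 to 2947334) had 118, 94.1 and 113 FPKM at YS, 114, 107 and 113 at MS and 110.1, 108 and 85.97 at RS. No stage stood apart from another in either gene. They were the longest members, with 12579 and 12510 bp, and neighbours on the plus strand with no annotated gene between them. Whether they are near-identical copies, between which the authors' mapping could split reads, was not tested, since no sequence was used here, and their values are uncertain for that reason. LOC111276795 was also less steady on another measure of the same libraries, the assembled locus described further on.

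The other 3 of the 8 steadiest members had mean levels of 112 to 149 FPKM. LOC111298025 (NW_019168492.1, minus strand) had 163, 140.3 and 145 FPKM at YS, 134, 129 and 139.7 at MS and 136, 147 and 170.2 at RS, a ratio of 1.31. MS lay just below YS, and RS_03 was the highest library, the reverse of its place in most members. LOC111293628 (NW_019168481.1, minus strand) had 162, 143 and 137 FPKM at YS, 137, 129.6 and 134 at MS and 168, 175 and 160.5 at RS, a ratio of 1.35, with MS under both other stages. LOC111280523 (NW_019168037.1, plus strand) had 125, 124 and 92.7 FPKM at YS, 111, 112 and 104 at MS and 118, 129 and 90.98 at RS, a ratio of 1.41. Its stage means were the closest of all members, with an SD of 0.02 on the log2 scale, while libraries of the same stage differed by an SD of 0.21.

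A product name was at hand for 1 of the 100 genes, and the 99 others are given by symbol alone. LOC111293859 encodes ubiquitin-conjugating enzyme E2 2, which in Arabidopsis attaches ubiquitin to a histone and so acts on chromatin. It lies on the minus strand of NW_019168481.1 (3158232 to 3162850). The gene had 75.8, 67.4 and 56.3 FPKM at YS, 109, 109 and 107 at MS and 101, 100.1 and 77.6 at RS. Mean FPKM was 66.5 ± 9.77 in YS libraries, 108 ± 1.42 in MS libraries and 93.1 ± 13.4 in RS libraries (SD, n = 3 each). The 3 stages did not overlap: by the means, MS was 1.63 times as high as YS, RS 0.859 times as high as MS, and RS 1.40 times as high as YS. With a ratio of 1.94 the gene passed the limit of 2 by a narrow margin, and 87 members were steadier. Its spread between stage means, an SD of 0.37 on the log2 scale, was larger than that within stages, 0.18.

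Members close to the limits showed where such ratios came from. LOC111301283, at 1.999, had 114, 72.3 and 93.6 FPKM at YS, 133, 132 and 132 at MS and 136, 144 and 97.7 at RS, so that a single YS library set its lowest value and RS_02 its highest. LOC111314083, at 1.99, had 165, 138 and 162 FPKM at YS, 275, 258 and 261 at MS and 173, 191 and 141 at RS. MS lay above both other stages there, and no single library set the ratio. LOC111295647 at the lower limit had 53.9, 50.3 and 52.1 FPKM at YS, 82.8, 86.6 and 90.1 at MS and 64.4, 62.3 and 50.8 at RS, with MS above the others, and LOC111285709 had 78.02, 50.5 and 58.1 FPKM at YS, 69.9, 71.6 and 67.9 at MS and 94.6, 89.7 and 74.8 at RS, with RS above MS.

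Which library held the extremes was uneven. The lowest of a gene's 9 values came from YS_03 in 36 members, from RS_03 in 29 and from YS_02 in 15, so that 80 of 100 minima lay in 3 libraries. Among all 600 abundant genes RS_03 held 198 minima, YS_03 174 and YS_02 88. The highest value came from YS_01 in 21 members, from RS_02 in 19, from YS_02 in 17 and from MS_03 in 12. In 23 members the highest and the lowest value fell in the same stage. The median deviation of the steady genes from their own mean was -0.26 in YS_03 and -0.23 in RS_03 on the log2 scale, against -0.03 to 0.14 in the 7 other libraries, as the plot of deviations by library shows. RS_03 is also the library whose top genes hold the largest share of FPKM, and the part of that in these minima was not tested.

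**Figure D3:**
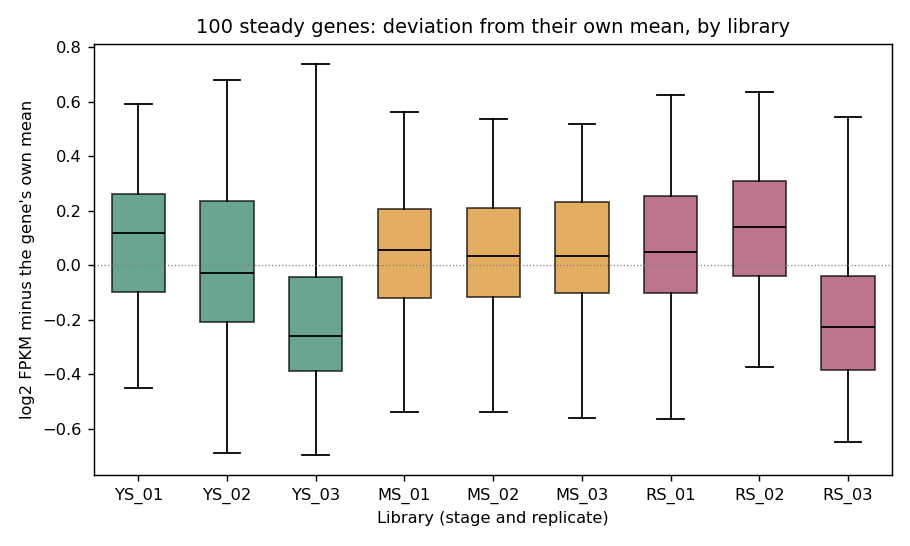
Deviation of the 100 steady genes from their own mean (log2 FPKM, vertical) in each library. Boxes give the quartiles and the median and whiskers the full range; YS_03 and RS_03 have medians of -0.26 and -0.23, while the 3 MS libraries have 0.03 to 0.05.

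Within a stage, the steady genes differed by a median ratio of 1.38 at YS, 1.05 at MS and 1.27 at RS, against 1.88, 1.05 and 1.53 in the varying abundant genes. The SD within stages had a median of 0.22 on the log2 scale and the SD of the 3 stage means a median of 0.20. Stage means differed more than libraries of the same stage in 52 members and less in 48. LOC111303370 and LOC111314366, both chosen here after their values were seen, had the largest SD within stages, 0.37. LOC111303370 had 111, 107 and 67.9 FPKM at YS, 110.3, 109.8 and 107 at MS and 130.5, 129 and 71.6 at RS, with YS_03 and RS_03 far under their partners.

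By stage means, MS was the highest stage in 46 members, RS in 33 and YS in 21, while YS was the lowest in 37, MS in 33 and RS in 30. The most frequent order was MS above RS above YS, with 24 members, followed by MS above YS above RS with 22 and RS above YS above MS with 20. No stage was thus the high or the low point of most members. A comparison of the libraries themselves is stricter than an order of means. In 29 members all 3 pairs of stages overlapped, in 33 a single pair was apart, in 30 members 2 pairs were, and in 8 all 3 pairs were. Of the 21598 genes tested (FPKM of 1 or higher in at least 3 libraries), no pair was apart in 17.6%, a single pair in 21.9%, 2 pairs in 45.9% and all 3 in 14.6%, and nothing is read from the contrast, which the rule itself used.

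For MS against YS, all 3 MS libraries lay above all 3 YS libraries in 27 members and below them in 15. Of all genes tested, 31.3% lay above and 27.2% below, so that 42 members and 58.5% of those genes did not overlap. For RS against MS, RS lay above in 23 members and below in 34, where the share over all those genes was 13.4% above and 47.6% below, which made 57 members and 61.1% of genes without overlap. For RS against YS, RS lay above in 8 members and below in 10, with 8.78% and 29.1% over all genes, or 18 members and 37.9% of genes without overlap. Since the rule limits every ratio, nothing is read from these shares. Without RS_03, RS lay above MS in 47 members (31.8% of all genes) and above YS in 32 (23.2%). Below MS it was 37 (48.0%) and below YS 10 (29.3%). With a library fewer the comparison is looser, so that no such count can fall. The same counts without RS_01 or without RS_02 were not made.

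The largest group with a stage apart held 15 genes in which MS lay above YS and RS below MS, that is, with a peak at MS, a pattern that 4113 of all genes tested (19%) had. Stage means of these genes were 1.26 to 1.71 times as high in MS as in YS and 0.559 to 0.872 times as high in RS as in MS. LOC111279929, LOC111311920, LOC111301629, LOC111314083 and LOC111295647 belong here. The clearest case, singled out after its values were seen, was LOC111313730, with 93.9, 99.1 and 94.95 FPKM at YS, 167, 164 and 162 at MS and 91.2, 97.04 and 86.4 at RS. Its 6 YS and RS libraries lay within a narrow band and MS stood apart above them, at 1.71 times the YS mean. All 3 MS libraries lay above the 6 others in 19 members, against 23.8% of all genes tested, and below them in 6, against 7.87%.

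In 13 members only RS and MS were apart, with RS above, against 2.04% of all genes tested, a pattern that the rule's contrast shapes and from which nothing is read. LOC111289396 had the largest such step, 1.61 times by the stage means, and was chosen for it. It had 131, 152 and 116 FPKM at YS, 124, 125 and 128 at MS and 229, 231 and 146 at RS. In RS_01 and RS_02 it stood well above every other library, and RS_03 was near the top of the YS range. In 8 members RS lay below MS with no other pair apart (10.6% of all genes tested), as in LOC111277069, which had 159, 155 and 104 FPKM at YS, 153, 162 and 155 at MS and 117, 121 and 83.9 at RS. In 6 members (4.49% of all genes tested) MS lay below YS and RS above MS, a dip at MS, and LOC111304569 and LOC111293628 were among them. Another dip, singled out by its values, was LOC111276850 with 173, 149 and 114 FPKM at YS, 104, 109 and 108 at MS and 147, 201 and 205 at RS, where RS_03 was not low but the highest of the 9 libraries.

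The 8 members in which no pair of stages overlapped were chosen by that pattern. In 3 of them MS was highest and YS lowest (2.4% of all genes tested): LOC111311670, LOC111289687 and the E2 gene LOC111293859. LOC111289687 had 60.7, 52.7 and 51.95 FPKM at YS, 92.9, 94.3 and 89.2 at MS and 64.9, 73.7 and 61.4 at RS. In LOC111299132 and LOC111275380 the level went up stage by stage (1.56% of all genes tested). LOC111275380 had 61.6, 56.98 and 65.1 FPKM at YS, 75.6, 76.5 and 75.04 at MS and 82.8, 87.9 and 77.9 at RS, and its stage means were 1.24 times as high in MS as in YS and 1.09 times as high in RS as in MS. In LOC111288213 and LOC111302010 it went down stage by stage (4.88% of all genes tested). LOC111302010 had 136, 104 and 100.3 FPKM at YS, 94.6, 96.2 and 95.5 at MS and 89.6, 92.9 and 77.7 at RS. The last, LOC111282019, had 154, 158 and 149 FPKM at YS, 211, 216 and 217 at MS and 125, 140.5 and 129 at RS, so that MS was highest and RS lowest, as in 2.35% of all genes tested. Even these ordered changes stayed within the 2-fold limit by construction.

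For comparison with the rest of the genes, each pair of stages was fitted with limma on log2(FPKM + 1), and a gene was called where its log2 fold change lay beyond 1.5 and its adjusted p (Benjamini-Hochberg over 21598 genes) under 0.05. No member could be called, as the 2-fold limit holds its change to within 1 on this scale, and 0 of 100 were called in each comparison. Over all tested genes 15.7% were called for MS against YS (5.43% rose, 1172 genes, and 10.2% fell, 2211 genes). For RS against MS 9.21% were called (3.95% rose, 853 genes, and 5.26% fell, 1136 genes). For RS against YS 12.3% were called (2.89% rose, 625 genes, and 9.36% fell, 2022 genes). Log2 differences of the members ran from -0.92 to 0.77 for MS minus YS, from -0.83 to 0.77 for RS minus MS and from -0.59 to 0.68 for RS minus YS. Their medians were 0.09, -0.04 and 0.05, where the medians over all tested genes were 0.06, -0.40 and -0.35. After division by size factors of all genes the split of calls became 1035 risen and 2164 fallen for MS against YS, 1389 and 485 for RS against MS, and 1101 and 1421 for RS against YS.

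Steadiness depended on the level. Among genes listed in all 9 libraries, the share that stayed within 2-fold was 0.184% at a mean under 1 FPKM, 4.90% at 5 to 20 FPKM, 9.48% at 50 to 100 FPKM and 2.73% from 500 FPKM. Over all 9 libraries the share was highest at a mean of 50 to 100 FPKM. The lower limit of 50 FPKM applies to a gene's lowest library and not to its mean, so the 2 cannot be set side by side. RS_03 moved with the level: relative to a gene's own mean it stood at 0.396 at 1 to 5 FPKM, 0.711 at 50 to 100 FPKM and 1.04 from 500 FPKM. RS_01 and RS_02 lay between 0.981 and 1.40 in all ranges. YS_02 and YS_03 went the other way: under 1 FPKM they had 1.41 and 1.48, and from 500 FPKM 0.633 and 0.752. Without RS_03 the share within 2-fold was 22.0% at 20 to 50 FPKM and 18.3% at 50 to 100 FPKM. The part of library quality or composition in this was not tested.

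**Figure D4:**
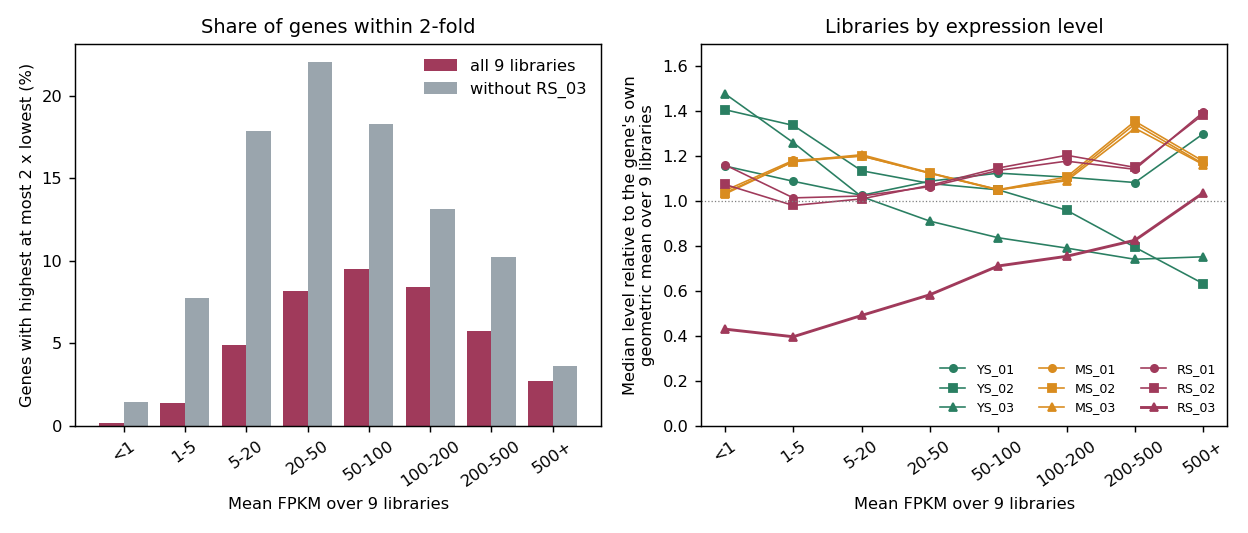
Left, the share of genes (percent) whose highest library is at most 2 times the lowest, by mean FPKM, over all 9 libraries and without RS_03; the share over all 9 peaks at 9.48% in the range of 50 to 100 FPKM. Right, the median level of each library relative to the gene's own geometric mean, by mean FPKM: RS_03 lies at 0.396 in the range of 1 to 5 FPKM and at 1.04 from 500 FPKM.

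Because FPKM is relative to the total of a library, the list of steady genes depends on the scale. With FPKM divided by size factors of all genes listed in 9 libraries (medians of ratios to the gene's geometric mean), where RS_03 has the factor of 0.479, 82 genes met the same rule, and 8 of these were among the 100. All 100 members then had their highest value in RS_03, which the 2-fold limit and the low RS_03 factor fix in advance. The median ratio of the members was 2.55, with a range of 1.64 to 4.76. The median RS minus MS difference of the members moved to 0.48 and that of all tested genes to -0.02, a shift of 0.38 for all genes, so that the sign of a small RS change depends on the scale. With size factors from the 600 abundant genes alone, a choice made after seeing the data, which lay between 0.808 and 1.17, 167 genes met the rule, 85 of the 100 among them, and the median ratio of the 100 was 1.65.

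The 8 members steady on all 3 scales were LOC111304676, LOC111312094, LOC111277069, LOC111282080, LOC111288028, LOC111287027, LOC111295878 and LOC111302010. LOC111304676 had 83.8, 94.01 and 73.3 FPKM at YS, 74.9, 78.5 and 74.3 at MS and 73.1, 71.96 and 61.4 at RS, a ratio of 1.53 as deposited, 1.996 with the factors of all genes and 1.63 with those of the abundant genes. LOC111282080 had 101, 85.1 and 99.5 FPKM at YS, 98.1, 83.7 and 93.98 at MS and 78.6, 94.3 and 55.3 at RS, and its ratio was 1.82 as deposited, 1.64 with the factors of all genes, the lowest of any member there, and 1.79 with those of the abundant genes. In each of the 8, RS_03 was the lowest library as deposited. A member can pass with the factors of all genes only in that case, so this is no separate trait of these genes. The steadiest gene as deposited, LOC111315237, had ratios of 2.63 and 1.52 on the rescaled values, and the E2 gene LOC111293859 had 3.17 and 1.55.

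**Figure D5:**
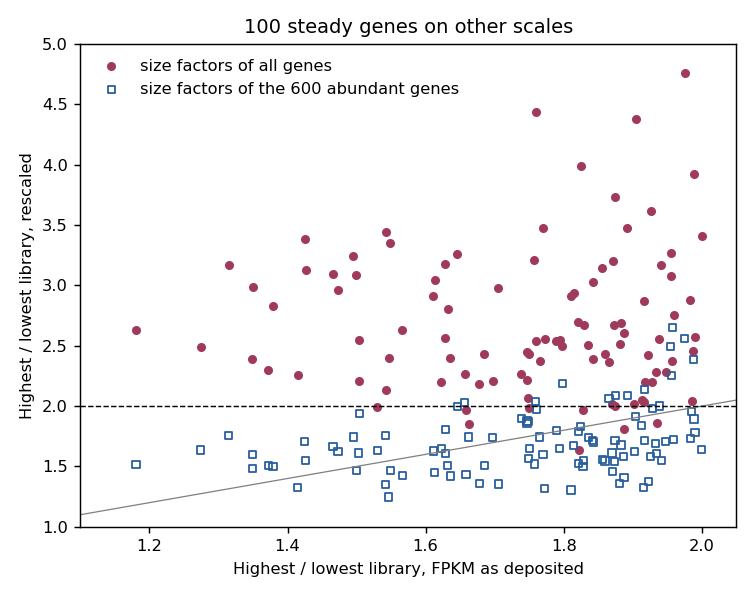
Ratio of highest to lowest library of the 100 steady genes as deposited (horizontal) against the ratio after division by size factors (vertical), for factors of all genes (filled circles) and of the 600 abundant genes (open squares). The grey line marks equal ratios and the dashed line the limit of 2; 8 circles and 85 squares lie at or under it.

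The rule used no feature of the genes but their level, and the members are spread over the genome. They lie on 30 scaffolds, 50 on each strand, and the scaffold with most, NW_019168270.1, holds 8 members among its 27 abundant genes. The median span of a member from start to end was 2757 bp (765 to 12579 bp), against 2271 bp in the varying abundant genes and 3946 bp in all genes listed 9 times. In the gene table of another durian assembly 93 of the 100 symbols were found. Of these 89 were protein coding and 4 (4.30%) transcribed pseudogenes, against 3.78% in the varying abundant genes and 10.5% in all listed genes. A single RefSeq transcript was annotated for 69.9% of the matched members, against 71.8% and 56.0%. In each of these features the steady genes lay nearer to the varying abundant genes than to all listed genes, and the differences were not tested.

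The 4 genes annotated there as pseudogenes were LOC111304481, LOC111282011, LOC111288497 and LOC111291083. LOC111291083 had 69.2, 54.2 and 57.1 FPKM at YS, 68.8, 68.1 and 63.4 at MS and 90.8, 94.3 and 95.4 at RS, with RS above both other stages. It is a gene of 775 bp that shares 188 bp with LOC111290064 on the opposite strand, whose highest library was 1.95 FPKM. The library kit, as the methods name it, is not stated to mark strand, so reads of the shared bases cannot be told apart. LOC111303461 lies wholly within LOC111303462 on the same strand, whose highest library was 130.3 FPKM, and its values are uncertain for that reason. It had 209.7, 203 and 109 FPKM at YS, 167, 163 and 176 at MS and 146, 169.9 and 108 at RS. No other member overlapped a reference gene, while 33 of the 500 varying genes did.

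Neighbours among the members were few. In 6 cases the gap between 2 members was under 100 kb, and in 2 of these no annotated gene lay between them. LOC111301629 and LOC111301630 lie 1490 bp apart on the minus strand of NW_019167871.1. LOC111301630 had 78.9, 72.1 and 80.3 FPKM at YS, 101, 99.4 and 108 at MS and 74.4, 75.02 and 57.7 at RS, and across the 9 libraries its log2 values followed those of LOC111301629 with r = 0.80. Over all 4950 pairs of members r had a median of 0.22 and an upper decile of 0.73, and all pairs share their libraries. LOC111276795 and LOC111276797, whose gap is 39865 bp, had r = 0.22.

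The deposited tables also hold loci assembled anew in each library, which give another reading of the same fragments. For 81 members exactly 1 assembled locus on the same strand lay over the gene in all 9 libraries. Of the 729 values compared, 86.0% were within 1% of the reference FPKM, and 73 of the 81 genes met the same rule with the assembled values. The other 8 are named here for that reason. The E2 gene LOC111293859 was among them: its assembled locus in YS_02 had 219.8 FPKM, against 67.4 FPKM for the reference gene, and its ratio became 3.91. In LOC111317293 RS_03 had 814 FPKM for the assembled locus, against 59.7 FPKM, and in LOC111287200 YS_02 had 1667 FPKM, against 157 FPKM, with ratios of 12.3 and 17.4. LOC111304747 reached 3.84, since its locus in YS_03 had 39.7 FPKM, against 81.6 FPKM for the reference gene. LOC111303461 (2.36), LOC111276795 (2.25), LOC111304569 (2.02) and LOC111316634 (2.02) missed the limit by less. Where an assembled locus also takes in a neighbouring gene, its value is no longer that of the member, and this was not tested.

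Of 17 lists of gene groups, 14 held at least 1 gene with a product name, 123 genes in all, and 1 steady gene, LOC111293859, appears among them, in 2 lists. These names come from genes that the study itself picked on these samples, so the lists are no independent evidence of direction or of how often such genes are called. The list of ubiquitin and SUMO genes had 5 tested genes. For MS against YS, 1 of the 5 rose, LOC111285147, which encodes a membrane-anchored ubiquitin-fold protein, and 4, the steady E2 gene among them, did not pass. The rule of the group kept the steady E2 gene from passing in any comparison, so its place in the counts and medians of its 2 lists is no result. The share called over all tested genes was 15.7% for MS against YS, 9.21% for RS against MS and 12.3% for RS against YS. LOC111285147 had 19.6, 8.16 and 11.6 FPKM at YS, 62.5, 59.7 and 66.1 at MS and 32.5, 30.8 and 17.6 at RS (log2 difference of 2.26 ± 0.30 (SE) for MS minus YS, adjusted p = 0.00235 with limma). For RS against MS and RS against YS 0 of the 5 passed with limma, while at an unadjusted p under 0.05 it was 1 and 2 of the 4 that are no members. The median log2 difference of the 5 was 0.71 for MS minus YS, -0.23 for RS minus MS and 0.48 for RS minus YS. LOC111281786, a probable ubiquitin-conjugating enzyme E2 23 that also carries activated ubiquitin, had 4.69, 5.75 and 4.52 FPKM at YS, 8.49, 11.4 and 12.1 at MS and 11.5, 14.02 and 6.63 at RS, and its log2 difference for MS minus YS was 0.95 ± 0.20 (SE; adjusted p = 0.0112 with limma), under the fold limit.

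The list of reference genes for quantitative PCR also had 5 tested genes, of which 2 were ubiquitin hydrolases and 2 E2 enzymes. These 4 are also in the list of ubiquitin and SUMO genes, so the 2 lists are not separate results. Genes entered the list by product name, and their use as reference genes in durian was not tested. For MS against YS, 1 of the 5 fell, LOC111312807, which encodes a beta-tubulin, a subunit of microtubules, with a log2 difference of -1.51 ± 0.31 (SE; adjusted p = 0.0104 with limma). It was far less abundant than any member, with 1.12, 3.03 and 3.77 FPKM at YS, 0.225, 0.198 and 0.208 at MS and 0.259, 0.416 and 0.352 at RS. In the 2 other comparisons 0 of the 5 passed with limma, while at an unadjusted p under 0.05 it was 0 of 4 non-members for RS against MS and 2 of 4 for RS against YS. For RS minus YS, LOC111312807 had a log2 difference of -1.36 ± 0.39 (SE; adjusted p = 0.0415 with limma), short of the fold limit alone. The 12 other lists concern genes that are no members, and 10 of them had only 1 to 3 tested genes. For MS against YS, transcription factors had 19 of 76 risen and 38 fallen, and redox and stress proteins 1 of 7 risen and 4 fallen, where 5.43% of all genes rose and 10.2% fell. For RS against MS, transcription factors had 12 risen and 14 fallen, and redox and stress proteins 6 risen and 1 fallen, where 3.95% of all genes rose and 5.26% fell. For RS against YS, transcription factors had 14 risen and 32 fallen, and redox and stress proteins 6 risen, where 2.89% of all genes rose and 9.36% fell. Nothing is read from the contrast of these lists with all genes, since the study's own choice of genes shaped it.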

How the data were processed

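Poly-A RNA of 9 pulp libraries was sequenced on an Illumina HiSeq with a kit not stated to mark strand. The FPKM values deposited by the authors came from StringTie tables, 1 per library. In the methods of the study HISAT2 precedes StringTie, TopHat precedes Cufflinks and CLC has a mapper of its own, and the submitters' processing notes list FastQC, Trimmomatic, Bowtie and TopHat; which mapper gave these values, versions and the genome build are not given in the sources used here. The coverage (signal) column deposited by the authors is mean depth per base, uncorrected for library size. The TPM column that the authors deposited was taken as a score, since it sums to the usual total over assembled loci alone. No file holds counts, so no counting interval is given, so that p-values rest on the spread of these libraries alone.

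Genes are reference rows, and genes absent from a table were given 0. Member coverage ran from 116 to 4665. Members and lists were chosen with earlier results of these data known. Tables were read with Python 3.11.15, pandas 2.3.3 and NumPy 2.4.6 and drawn with Matplotlib 3.10.9. Each pair of stages was fitted on its 6 libraries with limma 3.58.1 (R 4.3.3) on log2(FPKM + 1), two-sided, for genes with FPKM of at least 1 in 3 libraries. The pseudocount understates changes of low genes. The fit was tested on simulated data, 21598 genes with 200 changed by 3 on the log2 scale: it recovered 85.0% of them for MS minus YS, 87.5% for RS minus MS and 72.0% for RS minus YS, with 3, 3 and 6 false calls. The changed genes were drawn from those with a mean log2(FPKM + 1) above 3, so low genes are not covered. The noise was normal, with the same SD in both stages. In the steady genes the median SD on the log2 scale was 0.04 at MS, against 0.26 at YS and 0.18 at RS. The simulated shares are therefore no measure of the fit on the real libraries. Size factors are medians of ratios. Product names came from tables of the study (687 genes, 682 with a value), and biotypes from the RefSeq gene table of assembly ASM4732523v1. Neighbours and the genes between them came from the reference rows. The RefSeq gene table gave a second count of genes between neighbours, with no match for LOC111276795 and LOC111276797.

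The text names members by a rule: the 12 with the highest mean, the 8 with the lowest ratio, the 2 nearest each limit on each side, members in a list and members the study names. Other members are said to be chosen by their values, or are those that a count of 8 or fewer describes. Genes that are no members are named for the ubiquitin and reference gene lists, just outside the limits and where they overlap a member. Others are examples, chosen from genes that met the rule once RS_03 was left out. Alternatives were other limits, scales, pseudocounts and filters, a replicate block, averaged MS libraries and leaving out each library.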

Additional observations from a re-analysis of the deposited data

How the results depend on the processing

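The number of steady abundant genes, 100, follows from its limits. It was 289 with a lower limit of 20 FPKM and 35 with 100, 14 with a ratio of at most 1.5 and 293 with at most 3, 247 with the TPM column (91 of the 100 kept), and 82 with size factors of all genes (8 kept). With size factors of the 600 abundant genes, an alternative chosen after seeing the data, it was 167. Leaving out each library in turn gave 100 to 210 genes, the highest without RS replicate 3 (210) and without YS replicate 3 (170), and since leaving out a library can only raise a gene's lowest value and lower its ratio, the 100 pass each time by construction. Without RS replicate 3 and with size factors of all genes, also chosen after seeing the data, it was 200 (80 kept). The calls over all genes were 3383, 1989 and 2647 for MS minus YS, RS minus MS and RS minus YS. With a pseudocount of 5 they were 1461, 840 and 924. Averaging the 3 MS libraries to 1 sample in 1 model gave 928 for MS minus YS and 185 for RS minus MS, and with no filter on low values 915 for RS minus YS. Leaving out each library gave 2747 to 4040, 1525 to 2351 and 1558 to 3326 calls, and RS minus YS had 1558 without YS replicate 2 and 1662 without RS replicate 3. The replicate numbers do not pair the samples (r of same-numbered deviations between -0.16 and 0.08), and with the replicate block the calls were 3486, 2069 and 2290. Of 462 counts of calls in lists under alternatives, 440 were within 1.5 times the count reported and 22 were not, with a count of 0 treated as 1. In a list with 1 tested gene a change between 0 and 1 was thus taken as within. Nothing is read from the 440 for that reason. The causes of these changes were not tested. Every member had a coverage of at least 116, which follows from the lower limit of 50 FPKM, and what depth limits was not tested.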

Other observations

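Outside the range of the 100 genes, steady genes were also counted at lower levels. Among genes listed in all 9 libraries, 247 with a mean of 20 to 50 FPKM, 371 with a mean of 5 to 20 FPKM and 106 with a mean of 1 to 5 FPKM had a highest library of at most 2 times the lowest.

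When RS_03 was left out, 110 further genes met the rule, and their RS_03 values were the ones that had kept them out. LOC111275159, chosen here for its high level, had 865 FPKM in RS_03, against 1729.97 to 3292 FPKM in the 8 other libraries. LOC111276235, chosen as an example, had 34.9 FPKM in RS_03, against 76.1 to 96.3 FPKM in the others.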
